A study of Rattus norvegicus with 5 samples.

Results

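The S100A genes encode small calcium-binding proteins, and 9 of them were described here in rat cornea: S100a1, S100a4, S100a6, S100a8, S100a9, S100a10, S100a11, S100a13 and S100a16. They were chosen by symbol, and the rows of these symbols were read in every library of the gene table. Of the 9 symbols, 8 gave values among 20339 genes, and all 8 passed the filter on low counts that left 13304 genes for testing. S100a13, which takes part in the release of fibroblast growth factor 1 from cells, has no expression value here and enters below only by its place in the genome and its start region. The libraries came from corneas of Sprague-Dawley males aged 6 months. Of the 5 rats, 2 carried the P1 hMR transgene, which expresses the human mineralocorticoid receptor gene NR3C2 in excess, and 3 were wild-type. The labels name the line but not what drives the transgene, nor whether the rats were littermates, so litter could not enter the test. P-values set the difference between genotypes against the spread of libraries within a genotype, among these 5 libraries. The question was how excess receptor alters corneal transcripts.

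An S100 protein holds a pair of EF-hand loops, works as a dimer and, in most members, exposes a binding surface for target proteins once calcium is bound. S100A10 is the exception, since its loops no longer bind calcium and it is held in a stable complex with annexin A2. S100A8 and S100A9 form calprotectin, an antimicrobial complex stored in neutrophils and also made by injured or inflamed surface epithelium. Most S100A genes lie in a cluster beside genes of the epidermal differentiation complex, and several are abundant in stratified epithelia such as that of the cornea.

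In the RefSeq order of protein-coding genes (assembly GRCr8) all 9 symbols lay on chromosome 2. From S100a1 to S100a9 the order was S100a1, S100a13, S100a16, S100a4, S100a6, S100a8 and S100a9, with at most 1 other coding gene between neighbours. S100a11 and S100a10 were adjacent to each other, with 58 coding genes between S100a9 and S100a11. RefSeq lists 5 pseudogenes and 2 like-named genes of S100a11, and 1 pseudogene of S100a10, none of which has a row of its own in the gene table. Reads of such copies could have been allotted to the parent gene, so the values of S100a11 and S100a10 are uncertain to that extent. No source used here says if strand was kept, and reads from an overlapping neighbour on the opposite strand cannot be told apart from those of a member.

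Depth was 26280687 and 30449675 counts in transgenic corneas 1 and 2, and 27692181, 20874010 and 21920046 counts in wild-type corneas 1, 2 and 3. Krt12, the keratin that defines corneal epithelium, took 4.49% and 3.33% of counts in transgenic corneas 1 and 2 and 3.75%, 4.41% and 3.87% in wild-type corneas 1, 2 and 3. Human NR3C2 had 42.2 and 36.5 CPM (counts scaled to a common library size after TMM) in transgenic corneas and was at 0 in all 3 wild-type ones, as the labels say. It was the only gene called by the edgeR test at an adjusted p of 0.05, so 0.00752% of tested genes were called. Pigment-cell markers summed to 89.3 and 167 CPM in transgenic corneas 1 and 2 and 50.9, 10.2 and 37.1 CPM in wild-type corneas 1, 2 and 3. Lens markers summed to 17.3 and 11.2 CPM in transgenic corneas and reached 133 CPM in wild-type cornea 1, against 31.8 CPM in wild-type cornea 2.

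No S100A gene was called as different between genotypes. Of the 8 tested, 0 passed the edgeR test, near the 0.00752% of all tested genes that did. Likewise 0 had an unadjusted edgeR p under 0.05, against 6.32% of all tested genes. In 0 of the 8 were both transgenic values outside the wild-type range, while 22.7% of all tested genes showed such a separation (12.0% above and 10.7% below). With only 8 genes, these counts do not set the S100A genes apart from all tested genes. By fitted log2 fold change 4 were higher and 4 lower in transgenic corneas, with a median of 0.02 over the 8 and of -0.01 over all tested genes. Adjusted p-values of the 8 genes lay between 0.874 and 0.985. As a share of all counts the 8 genes together took 0.212% and 0.209% in transgenic corneas 1 and 2, and 0.228%, 0.231% and 0.204% in wild-type corneas 1, 2 and 3. S100a10, S100a11 and S100a16 supplied 97.5% to 98.8% of those counts in each library. Levels are compared here between libraries and not between genes, because no source used here gives transcript lengths. In whole tissue, fewer cells of a type and less RNA per cell cannot be told apart.

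**Figure D1:**
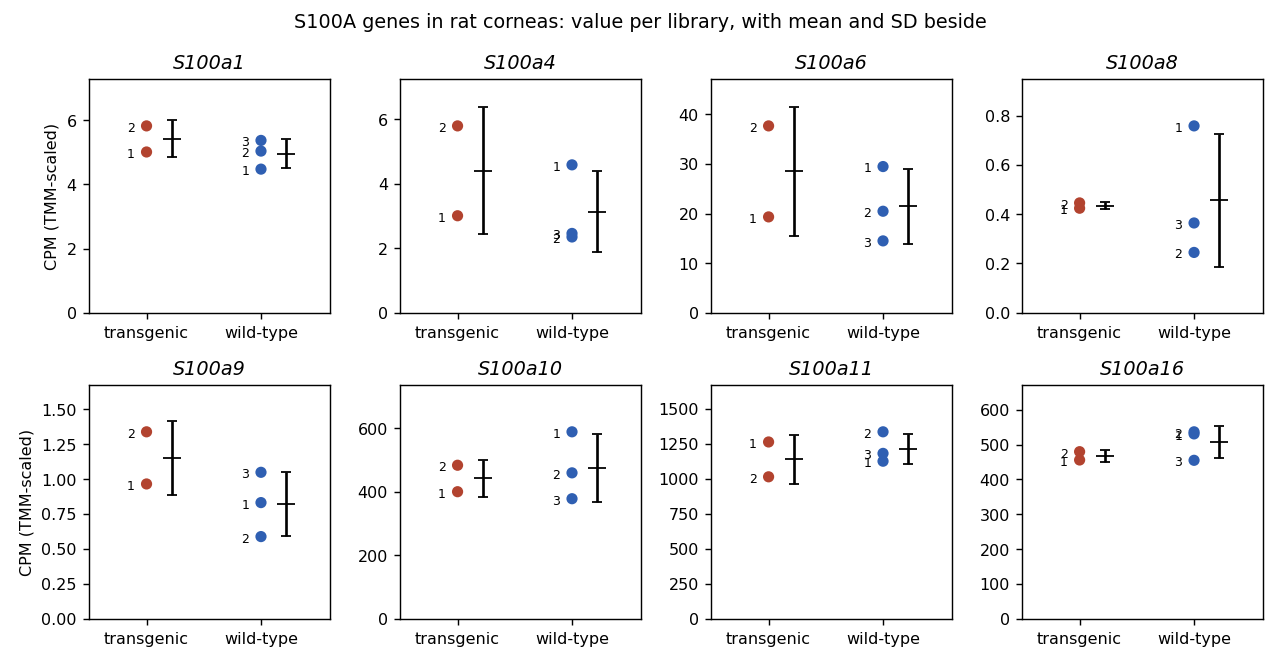
Each panel plots 1 S100A gene as CPM after TMM scaling (y axis from 0), with a point for each library numbered by replicate, and the mean with SD beside it (n = 2 transgenic, n = 3 wild-type). In all 8 panels the transgenic points lie within or across the wild-type range, and S100a4 and S100a6 are highest in transgenic cornea 2 and next highest in wild-type cornea 1.

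S100a11 was read most evenly among the annexin-binding members. Its protein binds annexin A1 and regulates growth of keratinocytes. S100a11 had 1263 and 1014 CPM in transgenic corneas 1 and 2, against 1125, 1335 and 1181 CPM in wild-type corneas 1, 2 and 3. The transgenic values lay on either side of the lowest wild-type value. The log2 fold change was -0.09 ± 0.13 (SE), with a 95% interval of -0.38 to 0.20, or a ratio between 0.768 and 1.14. Without transgenic cornea 2 the sign turned, to 0.06. Its partner Anxa1 had 1185 and 1896 CPM in transgenic corneas and 1640, 1854 and 1322 CPM in wild-type ones, so the 2 transgenic corneas differed in opposite directions for the 2 genes. The ratio of S100a11 to Anxa1 counts was 1.07 and 0.535 in transgenic corneas 1 and 2 and lay between 0.686 and 0.893 in wild-type ones.

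S100a10, the calcium-independent partner of annexin A2, had 399 and 483 CPM in transgenic corneas 1 and 2, against 588, 459 and 377 CPM in wild-type corneas 1, 2 and 3. Both transgenic values fell inside the wild-type range, of which wild-type cornea 1 was the upper end. The log2 fold change was -0.11 ± 0.19 (95% interval -0.55 to 0.34). Its sign turned without wild-type cornea 1 (0.09) and without transgenic cornea 1 (0.02). Anxa2, the annexin that S100A10 joins at the plasma membrane, varied less, with 3491 and 3353 CPM in transgenic corneas and 3538, 3736 and 3398 CPM in wild-type ones. Counts of S100a10 per count of Anxa2 were accordingly 0.114 and 0.144 in transgenic corneas 1 and 2, and 0.166, 0.123 and 0.111 in wild-type corneas 1, 2 and 3. Ahnak, a giant scaffold protein that the S100A10 complex anchors, had a log2 fold change of 0.07 ± 0.12, and Plat, the tissue plasminogen activator, which the complex binds at the cell surface, had 91.2 and 77.3 CPM in transgenic corneas and 108, 112 and 110 CPM in wild-type corneas 1, 2 and 3. For Plat the groups did not overlap, as for 22.7% of all tested genes. Its log2 fold change was -0.39 ± 0.10, short of the threshold (edgeR adjusted p = 0.492). Myh10, a non-muscle myosin gene next to Plat by p in the same list of partners, went the other way. It had 54.7 and 49.3 CPM in transgenic corneas and 40.0, 35.9 and 42.2 CPM in wild-type ones, also without overlap (0.40 ± 0.11, edgeR adjusted p = 0.492).

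S100a16, a widely expressed member, was the steadiest of the 8. It had 456 and 480 CPM in transgenic corneas 1 and 2, against 531, 537 and 455 CPM in wild-type corneas 1, 2 and 3. Wild-type cornea 3 was level with transgenic cornea 1, and the other wild-type values were higher. The log2 fold change was -0.12 ± 0.11 (95% interval -0.36 to 0.13), which bounds the ratio between 0.778 and 1.09. Of all tested genes 77.9% had a wider range of log2(CPM + 0.5) over the 5 libraries than S100a16. S100a1, known from heart and skeletal muscle, where it tunes calcium release, had a range that 57.3% of tested genes exceeded. It had 5.01 and 5.83 CPM in transgenic corneas and 4.48, 5.04 and 5.37 CPM in wild-type corneas 1, 2 and 3. Its counts of 103 to 183 per library gave a coefficient of variation of 9.67% over the 5 libraries, where counting error alone gives 8.81%, so at these counts it says little of the spread between animals. The log2 fold change of S100a1 was 0.13 ± 0.21 (95% interval -0.35 to 0.61). Skeletal muscle markers summed to 19.7 and 24.3 CPM in transgenic corneas 1 and 2 and 32.5, 19.5 and 14.5 CPM in wild-type corneas 1, 2 and 3, and their part in the S100a1 values was not tested.

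S100a4 and S100a6 had the widest ranges of log2(CPM + 0.5) among the 8 genes, and both were highest in the same libraries. S100A4 binds non-muscle myosin and is known from motile mesenchymal cells, and S100A6, or calcyclin, is a growth-associated member found in epithelia and fibroblasts. S100a6 had 19.3 and 37.7 CPM in transgenic corneas 1 and 2, against 29.5, 20.5 and 14.5 CPM in wild-type corneas 1, 2 and 3. S100a4 had 3.01 and 5.79 CPM in transgenic corneas 1 and 2, against 4.59, 2.35 and 2.46 CPM in wild-type corneas 1, 2 and 3. For both genes transgenic cornea 2 was highest and wild-type cornea 1 next, and transgenic cornea 1 lay inside the wild-type range. The highest and lowest values within a genotype differed 1.95-fold in transgenic and 2.03-fold in wild-type corneas for S100a6, and 1.93-fold and 1.95-fold for S100a4.

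The log2 fold change between genotypes was 0.41 ± 0.43 for S100a6 (95% interval -0.75 to 1.57) and 0.48 ± 0.39 for S100a4 (-0.40 to 1.37). Without transgenic cornea 2 both turned negative, to -0.15 for S100a6 and -0.07 for S100a4. Without transgenic cornea 1 they rose to 0.81 for S100a6 and 0.88 for S100a4. Without wild-type cornea 1 they rose to 0.72 for S100a6 and 0.89 for S100a4. In that last run S100a4 had an unadjusted edgeR p of 0.040 (adjusted p = 0.789). The coefficient of variation over the 5 libraries was 38.0% for S100a6 and 41.2% for S100a4, where counting error alone gives 3.97% and 10.2%. That of S100a8 was larger still, at 42.6%, but counting error alone gives 29.4% at its low counts. Wider ranges than that of S100a6 were found in 3.77% of tested genes, and wider than that of S100a4 in 6.38%. The ratio of S100a6 to S100a4 counts was steadier than either gene, at 6.42 and 6.50 in transgenic corneas and 6.43, 8.71 and 5.89 in wild-type corneas 1, 2 and 3. Transgenic cornea 2 and wild-type cornea 1 were also the libraries with the most counts. Ribosomal protein genes, a set chosen after the values were seen, took 1.45% and 2.01% of counts in transgenic corneas 1 and 2 and 1.77%, 1.63% and 1.56% in wild-type corneas 1, 2 and 3, highest in the same 2 libraries. Macrophage and leukocyte markers summed to 79.7 and 87.6 CPM in transgenic corneas 1 and 2 and 91.4, 88.7 and 80.2 CPM in wild-type corneas 1, 2 and 3. Taken singly, 8 of the 11 tested leukocyte markers had a fold change above 0 and 3 below (median log2 value 0.14). By edgeR 0 were called and 0 had an unadjusted p under 0.05. Csf1r was highest in transgenic cornea 2 (6.43 CPM) and next in wild-type cornea 1 (4.80 CPM). Mrc1 was highest in transgenic cornea 2 (4.43 CPM) but next in wild-type cornea 3 (2.23 CPM). Keratocyte markers, of the stromal fibroblast-like cells, summed to 2590 and 2733 CPM in transgenic corneas 1 and 2 and 2195, 2374 and 2146 CPM in wild-type corneas 1, 2 and 3. Of the 9 tested keratocyte markers 8 were higher and 1 lower in transgenic corneas, with 0 called, 5 at an unadjusted p under 0.05 (6.32% of all tested genes) and a median log2 fold change of 0.37. The part of depth, of ribosomal protein reads, of leukocytes or of keratocytes in the levels of S100a4 and S100a6 was not tested.

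The pattern of S100a6, the member of widest range, was most closely followed by Zc3h10, Lgals1 and Nnat among 8752 tested genes of at least 10 CPM outside the S100 family. The measure was the root mean square distance between log2(CPM + 0.5) profiles over the 5 libraries, each centred on its own mean. It was 0.14 for Zc3h10, 0.16 for Lgals1, which encodes a galectin, and 0.17 for Nnat. Nnat had 13.9 and 19.1 CPM in transgenic corneas 1 and 2 and 16.5, 12.7 and 9.11 CPM in wild-type corneas 1, 2 and 3. Cacybp, whose protein binds S100A6, had 61.9 and 86.1 CPM in transgenic corneas and 65.4, 72.1 and 61.4 CPM in wild-type ones, a narrower spread with the same library on top.

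**Figure D2:**
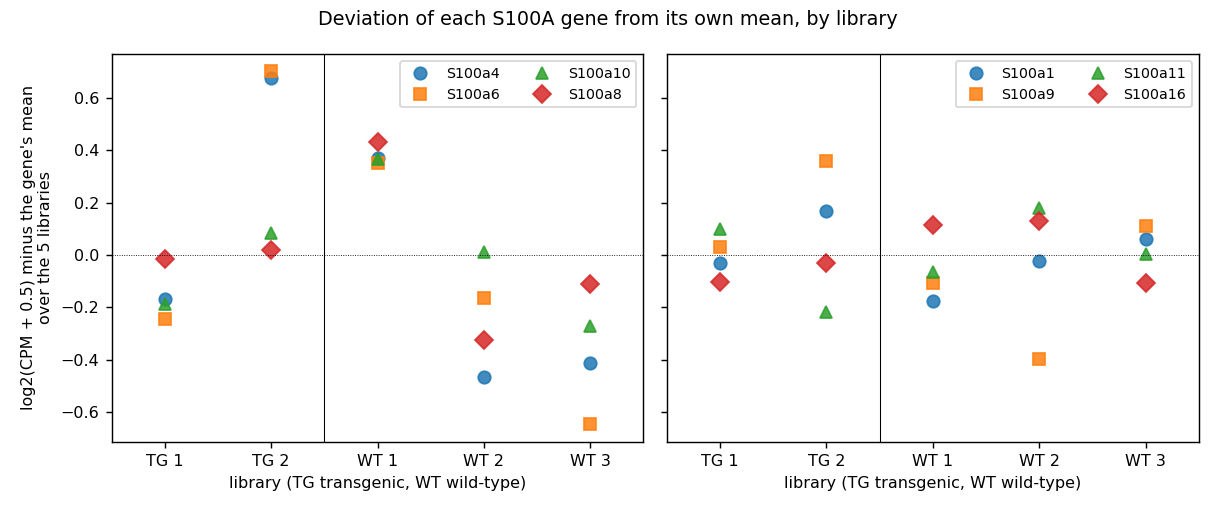
Each point is the log2(CPM + 0.5) of a gene in a library minus that gene's mean over the 5 libraries (y axis, log2 units), with transgenic libraries left of wild-type ones; the genes are divided between the panels so that the 4 on the left are those above their mean in both transgenic cornea 2 and wild-type cornea 1. S100a6 reaches 0.70 in transgenic cornea 2 and -0.65 in wild-type cornea 3, while S100a16 stays between -0.11 and 0.13.

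The start regions of S100a4 and S100a6, which were highest in the same libraries, are shown beside that of S100a11, which was lowest where those 2 were highest. Entries in the RefSeq promoter table (GRCr8) were matched for 6 of the 9 symbols, those other than S100a1, S100a8 and S100a10. The 250 bases before each start are given 5′ to 3′, with matches in capitals. Capitals mark a TATA box, spelled TATAAA. They also mark a GC box, spelled GGGCGG. Both strands were searched.
S100a4, chr2:178388279-178388528, plus strand: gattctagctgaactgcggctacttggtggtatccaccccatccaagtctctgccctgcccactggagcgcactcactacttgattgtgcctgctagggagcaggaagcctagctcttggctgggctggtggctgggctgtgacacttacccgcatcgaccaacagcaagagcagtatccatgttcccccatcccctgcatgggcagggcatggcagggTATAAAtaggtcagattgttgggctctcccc
S100a6, chr2:178398287-178398536, plus strand: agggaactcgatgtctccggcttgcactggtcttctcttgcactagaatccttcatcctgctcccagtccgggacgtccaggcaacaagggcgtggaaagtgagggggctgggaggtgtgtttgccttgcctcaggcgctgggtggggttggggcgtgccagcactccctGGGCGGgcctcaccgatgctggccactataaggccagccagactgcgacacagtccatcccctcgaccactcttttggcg
S100a11, chr2:181874882-181875131, plus strand: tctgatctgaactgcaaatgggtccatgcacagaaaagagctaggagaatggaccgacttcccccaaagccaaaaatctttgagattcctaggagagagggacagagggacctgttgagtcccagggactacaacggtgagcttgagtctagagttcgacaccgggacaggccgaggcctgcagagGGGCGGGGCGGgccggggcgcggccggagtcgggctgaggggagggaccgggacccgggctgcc
The TATA match of S100a4 began 31 bases before the start, the GC box of S100a6 80 bases before it, and the GC boxes of S100a11, which share 1 base, 64 and 59 bases before it. The TATA box was in 2 of the 6 windows (S100a4 and S100a9) and in 12.9% of 33469 promoter windows of the same length, and the GC box in 3 of the 6 (S100a6, S100a11 and S100a13) and in 30.5% of all. The steroid receptor element half-site TGTTCT, searched on both strands, had 0 matches in the 6 windows and was in 17.5% of all, and the full palindrome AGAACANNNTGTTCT had 0 matches and was in 0.0120% of all, overlapping the half-site wherever it occurs. A match describes letters in these windows only.

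S100a8 and S100a9, the calprotectin pair, were read at low counts. S100a8 had 11 and 14 counts in transgenic corneas 1 and 2, against 21, 5 and 8 in wild-type corneas 1, 2 and 3, or 0.424 and 0.446 CPM against 0.758, 0.245 and 0.364 CPM. Exact 95% Poisson intervals, which cover counting error only, were 5.49 to 19.7 for the 11 counts and 1.62 to 11.7 for the 5 counts. S100a9 had 25 and 42 counts in transgenic corneas, against 23, 12 and 23 in wild-type ones, or 0.964 and 1.34 CPM against 0.831, 0.587 and 1.05 CPM. The highest S100a9 value was in transgenic cornea 2, and transgenic cornea 1 lay below wild-type cornea 3. Log2 fold changes were -0.10 ± 0.62 for S100a8 (95% interval -1.48 to 1.28) and 0.48 ± 0.44 for S100a9 (-0.50 to 1.47). The sign for S100a8 turned without wild-type cornea 1 (0.51). S100a8 had 0.333 to 0.913 counts per count of S100a9, with the top ratio in wild-type cornea 1 and the other libraries at or below 0.440.

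Markers of neutrophils, the cells richest in calprotectin, were at or near 0. Of 11 neutrophil markers with a row, 5 were at 0 in every library (Elane, Camp, Ltf, Mmp8 and Cxcr1). The granule protein genes Mpo, Ngp, Prtn3 and Fcnb had at most 9 counts in any library. Csf3r had 7 and 11 counts in transgenic corneas 1 and 2 and 9, 4 and 9 in wild-type corneas 1, 2 and 3. The 11 summed to 0.694 and 1.62 CPM in transgenic corneas and to between 0.783 and 1.62 CPM in wild-type ones. S100a8 itself had only 5 to 21 counts, and the part of neutrophils in its values was not tested. Of the 11 markers, only Itgam, an integrin also of macrophages, passed the filter, with a log2 fold change of -0.08 ± 0.69. Markers of stressed stratified epithelium summed to 507 and 342 CPM in transgenic corneas and 496, 482 and 395 CPM in wild-type ones, and 0 of 4 tested passed. The S100A8/A9 receptors were measured too: Tlr4, a toll-like receptor, had 16.9 and 16.2 CPM in transgenic corneas and 15.6, 15.9 and 15.7 CPM in wild-type corneas 1, 2 and 3, a log2 fold change of 0.07 ± 0.13 (adjusted p = 0.945). Ager, the receptor for advanced glycation end products, had 1.74 and 1.62 CPM in transgenic corneas and 1.77, 1.86 and 1.59 CPM in wild-type ones. Of 7 tested receptor genes 0 passed, and Alcam had the smallest p, with a log2 fold change of 0.21 ± 0.09 (adjusted p = 0.786).

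**Figure D3:**
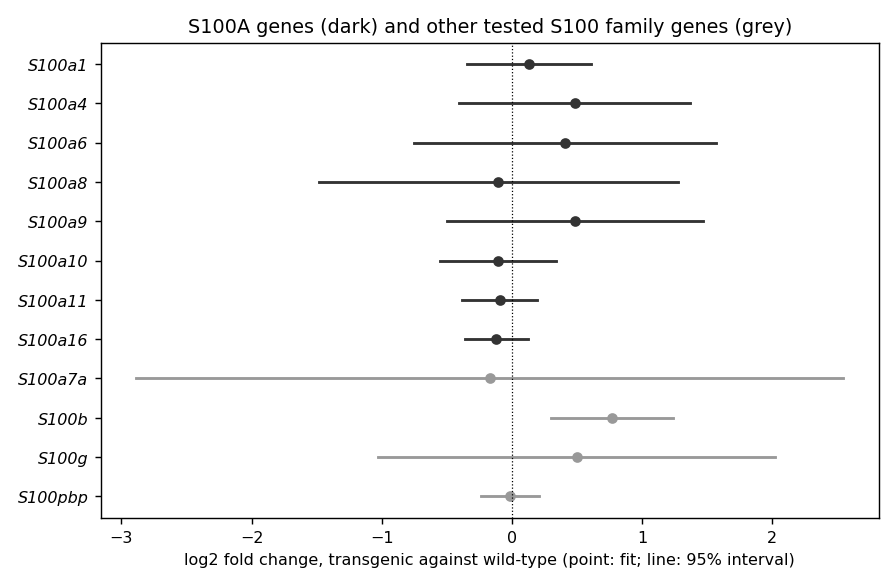
Points are fitted log2 fold changes of transgenic against wild-type corneas (x axis) and lines their 95% intervals, for the 8 S100A genes (dark) and the other 4 tested genes of the S100 family list (grey). All 8 dark lines cross 0, from -1.48 at the lower end of S100a8 to 1.57 at the upper end of S100a6, and among the grey ones that of S100b (0.30 to 1.24) does not.

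Among the 4 other tested genes of the family, only S100b had groups that did not overlap. S100b, a calcium-binding protein of Schwann cells and other glia, lies on another chromosome and had 12.0 and 17.7 CPM in transgenic corneas 1 and 2, against 10.4, 7.54 and 8.20 CPM in wild-type corneas 1, 2 and 3. Both transgenic values were above all wild-type ones, as for 12.0% of all tested genes. The log2 fold change was 0.77 ± 0.21, but the gene did not pass over all genes (edgeR adjusted p = 0.492). On the isoform named for S100b alone, given below, the groups overlapped. Schwann cell and nerve markers summed to 423 and 404 CPM in transgenic corneas and 404, 345 and 362 CPM in wild-type corneas 1, 2 and 3. Of 10 tested, 8 were higher and 2 lower in transgenic corneas, with 0 called and a median log2 fold change of 0.40. By edgeR 3 of the 10 had an unadjusted p under 0.05, against 6.32% of all tested genes. Pigment-cell sums, given above, had the same direction. Of 8 tested pigment-cell markers 8 were higher, 6 at an unadjusted p under 0.05 and 0 called, with a median of 2.07. The part of these cell types in the S100b values was not tested. S100a7a, an epithelial member related to psoriasin, had 3.32 and 0.191 CPM in transgenic corneas 1 and 2 and 2.09, 2.54 and 1.18 CPM in wild-type ones, so the widest gap was between the 2 transgenic corneas. S100g, the vitamin D-dependent calbindin of intestine, had 0.347 and 1.91 CPM in transgenic corneas and 0.939, 0.979 and 0.501 CPM in wild-type ones. S100pbp, which encodes a protein that binds S100P in human cells, was steady at 36.9 to 40.1 CPM. S100a3, S100a5 and S100z were under the filter, with at most 0.538 CPM in any library.

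The annexins, other partners of the S100 proteins and calmodulin-type genes were listed as well. With 0.00752% of all tested genes called by edgeR, 0 calls in lists this short is near the background. Of 10 tested annexins 2 were higher and 8 lower in transgenic corneas, with 0 called, 2 at an unadjusted p under 0.05 (6.32% of all tested genes) and a median log2 fold change of -0.06. Anxa3 had 67.5 and 80.7 CPM in transgenic corneas, against 98.2, 105.0 and 106 CPM in wild-type corneas 1, 2 and 3, without overlap (log2 fold change -0.48 ± 0.10, adjusted p = 0.404). Anxa6 had 30.4 and 31.5 CPM in transgenic corneas and 25.3, 23.6 and 22.8 CPM in wild-type ones, also without overlap (0.37 ± 0.11, adjusted p = 0.543). These 2 were named because their p was smallest among the annexins, and 22.7% of all tested genes did not overlap either. Anxa11, a known partner of S100A6, had a log2 fold change of -0.07 ± 0.10. Of 16 other tested partners, Plat among them, 6 were higher and 10 lower, with 0 called and a median of -0.08. By edgeR 3 of the 16 had an unadjusted p under 0.05, against 6.32% of all tested genes. Of 12 tested calmodulin-type genes 4 were higher and 8 lower, 0 were called, 0 had an unadjusted p under 0.05, and the median was -0.10.

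For 7 of the 8 genes the whole count sat in 1 named isoform row, so their isoform counts repeat the gene counts and are no separate evidence. For S100a10 the row named for the gene held 6.70% and 5.31% of the gene count in transgenic corneas 1 and 2 and 5.08%, 7.66% and 6.54% in wild-type corneas 1, 2 and 3. The rest of the S100a10 count was not traced to isoform rows, so isoform values of this gene speak for that small share alone. The named S100a10 isoform had 25.4 and 24.3 CPM in transgenic corneas, against 28.3, 33.1 and 23.3 CPM in wild-type ones, with its maximum in wild-type cornea 2 and not in wild-type cornea 1 as for the gene. The named S100b isoform held 51.4% of the gene count in transgenic cornea 1 and 100% in transgenic cornea 2, and 97.8%, 100% and 83.9% in wild-type corneas 1, 2 and 3. On that isoform alone the groups overlapped, with 5.87 and 16.8 CPM in transgenic corneas against 9.62, 7.10 and 6.49 CPM in wild-type ones, where 20.7% of the 27110 tested isoforms did not overlap. Estimated counts of single isoforms are less certain than those of genes. Of the 8 named S100A isoforms 0 were called, and 0% of all tested isoforms were.

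**Figure D4:**
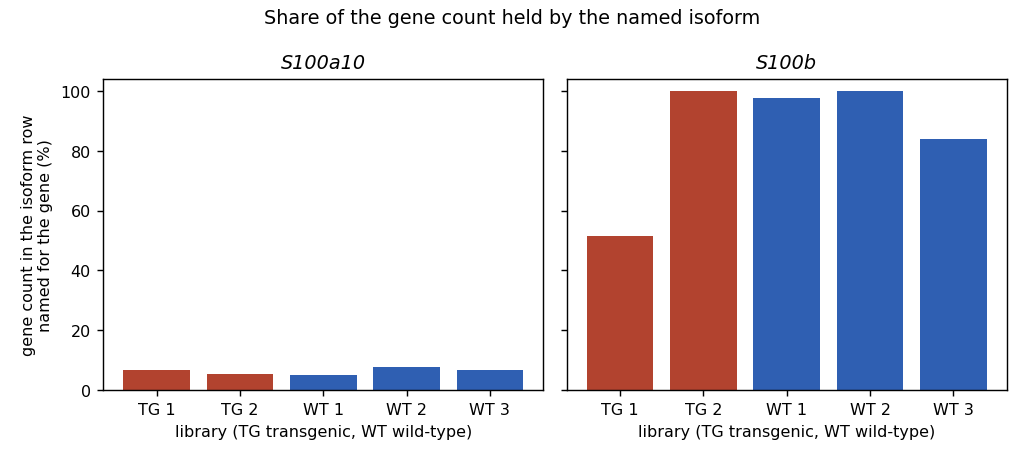
Bars give the percentage of a gene's estimated count held by the isoform row named for that gene (y axis from 0), in each library, for S100a10 and S100b. All S100a10 bars are between 5.08% and 7.66%, while S100b drops to 51.4% in transgenic cornea 1.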

How the data were processed

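The values, as the authors deposited them, are unnormalized estimated counts in 2 tables (genes, isoforms), with 1 column per cornea. The submitters' processing notes list rat build rn6 and the tools STAR 2.5.3a, fastp, FastQC, edgeR 3.28.0, RSEM 1.2.28 and DESeq2 1.26.0, without their roles. RSEM divides reads that several transcripts share. Columns were matched to samples by their descriptions. Counts were rounded, filtered by filterByExpr (minimum count 10), scaled by TMM and tested in R 4.3.3 with edgeR 4.0.16 (two-sided robust quasi-likelihood F test); p-values were adjusted by Benjamini-Hochberg across every row tested, with 0.05 as the threshold. The SE is the log2 fold change divided by the square root of F, and intervals are 95% t intervals; means are ± SD. Isoforms were tested likewise. The procedure was tested on simulated counts.

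Alternatives were DESeq2 1.42.0, limma voom 3.58.1, other scalings and filters, a replicate block, isoform sums and each library left out. Members and lists were chosen with earlier results of these data known. Genes named are the members, listed family genes, fixed partners and receptors, and examples from the 2 of smallest p in a list; Lgals1, Zc3h10 and Nnat follow the likeness rule. Of 20339 symbols 16183 matched RefSeq (GRCr8), used for gene order and promoter sequence.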

Additional observations from a re-analysis of the deposited data

How the results depend on the processing

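No S100A gene was called under any alternative run; the lowest adjusted p of a member was 0.573 with a library left out and 0.654 otherwise. Directions of S100a1, S100a9 and S100a16 held under all alternatives run, though with each library left out their log2 fold changes ran from 0.017 (without transgenic cornea 2) to 0.23 for S100a1, from 0.23 (without transgenic cornea 2) to 0.70 for S100a9 and from -0.19 to -0.069 for S100a16, and 8 of 127 recomputed log2 fold changes turned sign. For S100A genes whose whole count sat in 1 named isoform row, isoform sums repeat the gene counts and are no separate check. Sums of the isoform rows gave -0.18 for S100a10, against -0.11 for the gene, and rest on the 5.08% to 7.66% of its count in the named row. With each library left out the log2 fold changes of the others ran from -0.25 to 0.086 for S100a10, -0.26 to 0.059 for S100a11, -0.066 to 0.89 for S100a4, -0.15 to 0.81 for S100a6 and -0.38 to 0.51 for S100a8, and S100a8 was also above 0 by limma voom (0.012) and as a difference of mean log2(CPM + 0.5) (0.0042); the cause was not tested beyond the libraries named. The edgeR fit over all genes called 1 gene, against 52 by DESeq2, 2 with no filter on low counts and 2 to 36 with a library left out. A fit with the replicate number as a block called 16 genes and 0 members. The labels do not say that a number marks a shared litter or day. Deviations from the group mean correlated across genes at 0.00066 and -0.11 for same-numbered libraries and from -0.11 to 0.11 for others. With 2 transgenic libraries their deviations mirror each other, so these values are not separate and cannot decide if a number was shared. S100a8, at 5 to 21 counts, was left out by the filter of at least 1 CPM in 2 libraries. With 1 transgenic library the lone sample is assumed to vary like the wild-type ones.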
